A study of Homo sapiens with 12 samples.

Results

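The mitosis and G2/M genes were followed as 50 genes chosen by symbol, and 49 of them had a row under that symbol among the 58797 genes named in the differential expression tables. Of the 50, KIF23 had no row under its symbol. Its Ensembl ID, ENSG00000137807, stands in the files under another symbol and was left out of all counts. All 49 were followed through 12 RNA-Seq libraries of A549, a human lung adenocarcinoma cell line. In the knockdown (KD) experiment, 3 shBTLA libraries came from cells given BTLA short hairpin RNA, and 3 shControl libraries from wild-type cells given the knockdown control. In the sort, 3 BTLA low and 3 BTLA high libraries came from the subpopulations with low and high BTLA on the cell surface, separated with a directly labelled BTLA antibody. The authors describe culture of the sorted cells, over which the BTLA difference between the subpopulations narrowed. They also report faster growth of BTLA low than of BTLA high cells, and more proliferation and colonies of A549 cells after BTLA KD. These results came from assays apart from these libraries. All cells were of this 1 tumor line in culture, and no source used here names which hairpin was sequenced or says that replicate libraries were separate cultures, so the spread behind each p-value is that between libraries and may be only technical. Each gene was compared only between libraries of 1 experiment.

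Cells enter mitosis when the kinase CDK1, bound to cyclin B, is switched on by CDC25 phosphatases and by the kinase PLK1. Chromosomes then condense, kinetochores bind the spindle, the spindle assembly checkpoint holds the cell until every chromosome is attached, and the anaphase-promoting complex (APC/C) with its activator CDC20 marks cyclin B and securin for destruction. Many of these genes are transcribed late in the cell cycle. Their promoters often hold CHR and CCAAT elements, and the B-MYB and FOXM1 complexes act at the CHR. The summed RNA of such genes is therefore widely used as a readout of proliferation in tumors.

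Depth was 29130357 to 41748767 assigned reads in the KD libraries and 29383169 to 42488067 in the sort. Levels are given as reads per 1000000 assigned reads (RPM), which allow 1 gene to be compared between libraries but not 2 genes with each other. BTLA, the targeted and sorted gene, had 0 reads in shBTLA 1, 2 and 3, against 0, 0 and 2 reads in shControl, and 0 reads in BTLA low 1, 2 and 3, against 0, 0 and 2 in BTLA high. A count of 0 allows up to 3 reads, or 0.0706 to 0.103 RPM, so BTLA reads cannot check the group labels at this depth. The 5 epithelial markers summed to 12128 to 14714 RPM in shBTLA and 5839 to 9530 RPM in shControl, and to 17654 to 20848 RPM in BTLA low and 12028 to 15330 RPM in BTLA high. KRT8 and KRT18 made up nearly all of each sum. Over the 12 libraries CDH1 had 8.75 to 69.8 RPM, EPCAM 2.58 to 7.56 RPM and KRT19 at most 0.789 RPM. The 9 lymphocyte markers summed to at most 1.22 RPM, with CD3D, CD3E, CD2 and MS4A1 at 0 reads in every library, the 7 myeloid markers to at most 5.54 RPM and the 8 fibroblast and endothelial markers to at most 3.66 RPM. The library shControl 1 stood apart from the other 5 of its experiment, with -63.51 on the first principal component (46.73% of the variance) against -11.51 to 36.02, and the lowest share of reads in ribosomal protein genes (6.92% against 9.41% to 11.7%).

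Promoter windows, 300 bases from 250 before to 50 after the first RefSeq start of each gene (GRCh38.p14), were found for 42 of the 49 genes. CCAAT, on either strand, was in 33 of the 42 (78.6%), against 35.7% of all 27305 windows. The CHR letters TTTGAA or TTCGAA, on either strand, were in 30 of the 42 (71.4%), against 16.6% of all windows, and 26 of the 42 (61.9%) held both, against 6.58%. An E2F motif (TTGGCGC or the variant TTCGCGC or the variant TTCCCGC or the variant TTGCCGC, either strand) was in 13 of the 42 (31.0%), against 13.1% of all windows. ATTGG, which is CCAAT read on the other strand, can share its last 4 letters with the E2F letters TTGGCGC, and a match describes the letters only. The 250 bases before the start are printed 5′ to 3′ for 4 genes at the core of mitotic entry and exit, CDC20, PLK1 and CCNB1, which were lower in BTLA low cells, and CDK1, which was not called. Capitals mark CCAAT and the CHR letters on either strand.
CDC20, chr1:43358731-43358980, plus strand: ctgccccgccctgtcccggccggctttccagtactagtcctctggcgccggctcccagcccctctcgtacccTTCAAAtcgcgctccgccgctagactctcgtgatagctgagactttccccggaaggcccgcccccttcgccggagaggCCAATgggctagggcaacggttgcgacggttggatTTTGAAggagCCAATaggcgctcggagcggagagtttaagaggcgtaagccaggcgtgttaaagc
PLK1, chr16:23678639-23678888, plus strand: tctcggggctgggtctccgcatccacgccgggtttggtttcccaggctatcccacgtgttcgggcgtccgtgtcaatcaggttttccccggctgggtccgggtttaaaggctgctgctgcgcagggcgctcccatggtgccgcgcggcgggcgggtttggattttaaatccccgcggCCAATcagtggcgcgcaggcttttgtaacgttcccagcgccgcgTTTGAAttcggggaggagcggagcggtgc
CCNB1, chr5:69166900-69167149, plus strand: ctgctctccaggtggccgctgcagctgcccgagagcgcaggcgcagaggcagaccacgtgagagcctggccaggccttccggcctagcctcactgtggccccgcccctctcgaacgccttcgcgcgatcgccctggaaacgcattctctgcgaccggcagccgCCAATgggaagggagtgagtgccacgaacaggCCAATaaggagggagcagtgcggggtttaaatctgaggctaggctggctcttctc
CDK1, chr10:60778081-60778330, plus strand: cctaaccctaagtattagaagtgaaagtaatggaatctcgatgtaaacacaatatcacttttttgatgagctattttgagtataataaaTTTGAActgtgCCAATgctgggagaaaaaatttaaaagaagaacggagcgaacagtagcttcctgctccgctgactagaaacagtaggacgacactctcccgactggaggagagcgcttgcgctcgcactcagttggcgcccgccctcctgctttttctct
The windows of CDC20, PLK1 and CDK1 held both elements, and that of CCNB1 held CCAAT at 2 places with no CHR letters. Of the 5 genes lower in BTLA low that had a window, 5 held CCAAT and 3 the CHR letters. Of the other 37 windows, 28 held CCAAT and 27 the CHR letters.

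In the sort, 7 of the 49 mitotic genes fell in BTLA low relative to BTLA high cells and 0 rose. The 7 were CDC20, PLK1, UBE2C, BIRC5, CDCA3, AURKB and CCNB1, with log2 fold changes of -0.75 for CDC20 and -0.26 to -0.41 for the rest (limma, adjusted p under 0.05 over 16911 genes). Across all genes tested, 25.4% passed, 6.25% lower and 19.1% higher, so 7 of 49 stood beside 6.25% on the lower side and 0 of 49 beside 19.1% on the higher side. At an unadjusted p under 0.05 the counts were also 0 higher and 7 lower, against 28.8% and 9.99% of all genes, and limma with voom weights also called 0 higher. The median log2 fold change of the 49 was -0.06, with 31 genes below 0, against 0.18 for all genes tested, of which 32.0% were below 0. The median of the mitotic genes thus lay 0.24 on the log2 scale under that of all genes, and their range was -0.75 (CDC20) to 0.57 (NUSAP1). The levels of BTLA low and BTLA high did not overlap for 8 lower genes, the 7 and CCNB2, and 2 higher genes, CDC25C and NUSAP1, against 11.4% and 30.4% of all genes. At the stricter size limit of 1 on the log2 scale with an unadjusted p of 0.05 or less, 0 mitotic genes were higher and 0 lower, against 7.03% and 1.31% of all genes.

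**Figure D1:**
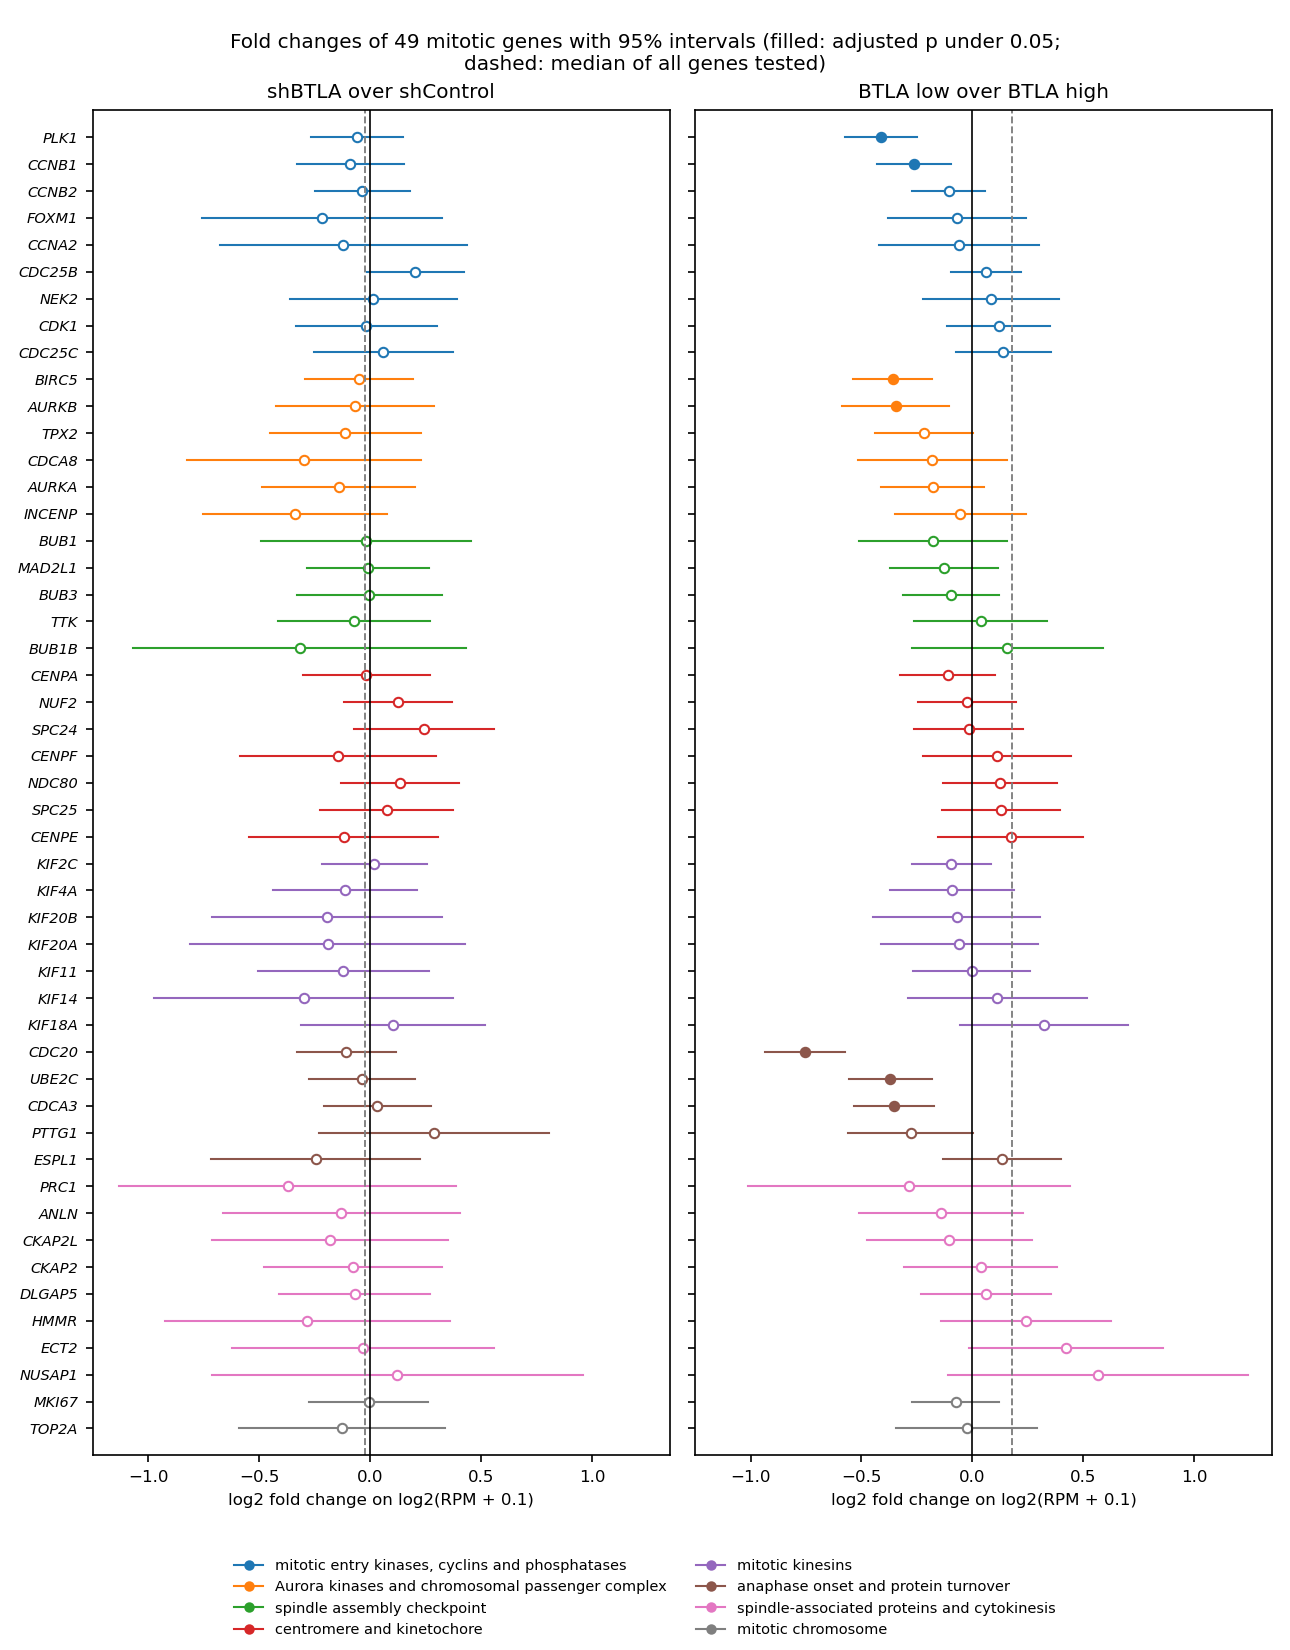
The log2 fold changes of the 49 mitotic genes, shBTLA over shControl (left) and BTLA low over BTLA high (right), on the log2(RPM + 0.1) scale with 95% limma intervals, one row per gene and coloured by role, with 3 libraries a group. Filled points passed the test at an adjusted p under 0.05, which 0 genes did in the KD and 7 did in the sort, all of them left of 0 there. The dashed lines mark the medians of all genes tested, -0.02 and 0.18.

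The count in the sort depended on how libraries were scaled. All genes tested were called 3238 higher and 1057 lower on RPM, 2149 higher and 2106 lower with TMM scaling, and 1580 higher and 3090 lower when libraries were scaled to their median gene, and the median of all genes moved to 0.03 and -0.08. Of the mitotic genes, 0 were then higher and 15 lower with TMM and 0 higher and 23 lower with median scaling, the 7 among them each time. The ribosomal protein genes took 7.54% ± 0.97 of reads in BTLA low and 9.34% ± 1.24 in BTLA high (SD, n = 3 each), and with that share as a covariate 30 mitotic genes were lower, 6 of the 7 among them, and 1, SPC24, was higher, against 14.9% lower and 20.9% higher of all genes tested. That share was computed from the same reads and differed between the groups. Its effect and that of the sort cannot be fully told apart in this fit. In bulk RNA, fewer cells in G2 or mitosis and less RNA per such cell cannot be told apart.

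In the KD, 0 of the 49 mitotic genes rose and 0 fell in shBTLA relative to shControl (limma, adjusted p under 0.05 over 16630 genes), against 0.782% higher and 0.686% lower, 1.47% together, among all genes tested. At an unadjusted p under 0.05 the counts were again 0 and 0, against 5.4% and 5.36% of all genes, and limma with voom weights called 0. At the size limit of 1 on the log2 scale they were 0 and 0, against 1.74% and 1.03%. The median log2 fold change was -0.07, with 37 genes below 0, against -0.02 and 53.7% of all genes. The range was -0.37 (PRC1) to 0.29 (PTTG1). Groups did not overlap for 3 higher genes, CDC25B, NUF2 and NDC80, and for 0 lower, against 9.14% and 8.77% of all genes. Without shControl 1 the median was 0.06 in place of -0.07, and without shControl 2 it was -0.16. In both cases 0 genes were called in either direction.

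The genes of mitotic entry are the kinases, cyclins and phosphatases that turn on CDK1, and 2 of 9 fell in BTLA low, with a median log2 fold change of -0.06 for the 9. PLK1, the polo-like kinase that drives entry and spindle assembly (chromosome 16, 23677656 to 23690367, GRCh38), had 212, 226 and 208 RPM in BTLA low 1, 2 and 3, against 299.9, 277 and 285 RPM in BTLA high 1, 2 and 3. All 3 BTLA low libraries were under all 3 BTLA high libraries (log2 fold change -0.41, SE 0.07, limma adjusted p = 0.0036). In the KD, PLK1 had 259.6, 260.5 and 280.2 RPM in the shBTLA libraries, against 284, 271 and 279 RPM in the shControl libraries, which overlapped (log2 fold change -0.06, 95% interval -0.27 to 0.15). CCNB1 encodes cyclin B1, the activating partner of CDK1 (chromosome 5, 69167135 to 69178245), and had 225, 249 and 237 RPM in BTLA low 1, 2 and 3, against 296, 269 and 288 RPM in BTLA high 1, 2 and 3. The groups did not overlap (log2 fold change -0.26, SE 0.08, limma adjusted p = 0.0307). Its KD levels were 309, 292 and 321 RPM in the shBTLA libraries, against 357, 297 and 329 RPM in the shControl libraries, overlapping around a log2 fold change of -0.09 (95% interval -0.33 to 0.15).

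CDK1 itself, the kinase that cyclin B1 activates (chromosome 10, 60778331 to 60794852), did not pass the test. It had 72.7, 86.7 and 80.97 RPM in BTLA low 1, 2 and 3, against 70.6, 68.4 and 82.6 RPM in BTLA high 1, 2 and 3, with overlapping groups (log2 fold change 0.12, 95% interval -0.11 to 0.35, limma adjusted p = 0.42). In the KD it had 84.8, 77.9 and 78.9 RPM in the shBTLA libraries, against 93.2, 67.2 and 86.5 RPM in the shControl libraries, where the shBTLA libraries lay inside the range of shControl. FOXM1, the transcription factor that activates many late cell cycle genes, had 91.96, 123 and 99.04 RPM in the BTLA low libraries, against 109, 92.2 and 128 RPM in the BTLA high libraries. The FOXM1 groups overlapped in the sort (log2 fold change -0.07) and in the KD, where it had 89.7, 66.4 and 87.8 RPM in the shBTLA libraries, against 130.0, 66.6 and 94.9 RPM in the shControl libraries and shControl 1 was the highest library. CDC25B, a phosphatase that activates CDK1 at entry, had the smallest unadjusted p of the 49 in the KD. It had 382, 359.5 and 392 RPM in the shBTLA libraries, against 342, 309 and 335 RPM in the shControl libraries, with all shBTLA libraries above all shControl libraries, and did not pass the test (log2 fold change 0.20, 95% interval -0.01 to 0.42, limma adjusted p = 0.504). In the sort CDC25B had 365, 385 and 361 RPM in the BTLA low libraries, against 362, 339 and 366 RPM in the BTLA high libraries, with a log2 fold change of 0.06. The other 4 entry genes, CCNA2, CCNB2, CDC25C and NEK2, had log2 fold changes of -0.11 (CCNB2) to 0.14 (CDC25C) in the sort and -0.12 (CCNA2) to 0.06 (CDC25C) in the KD.

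**Figure D2:**
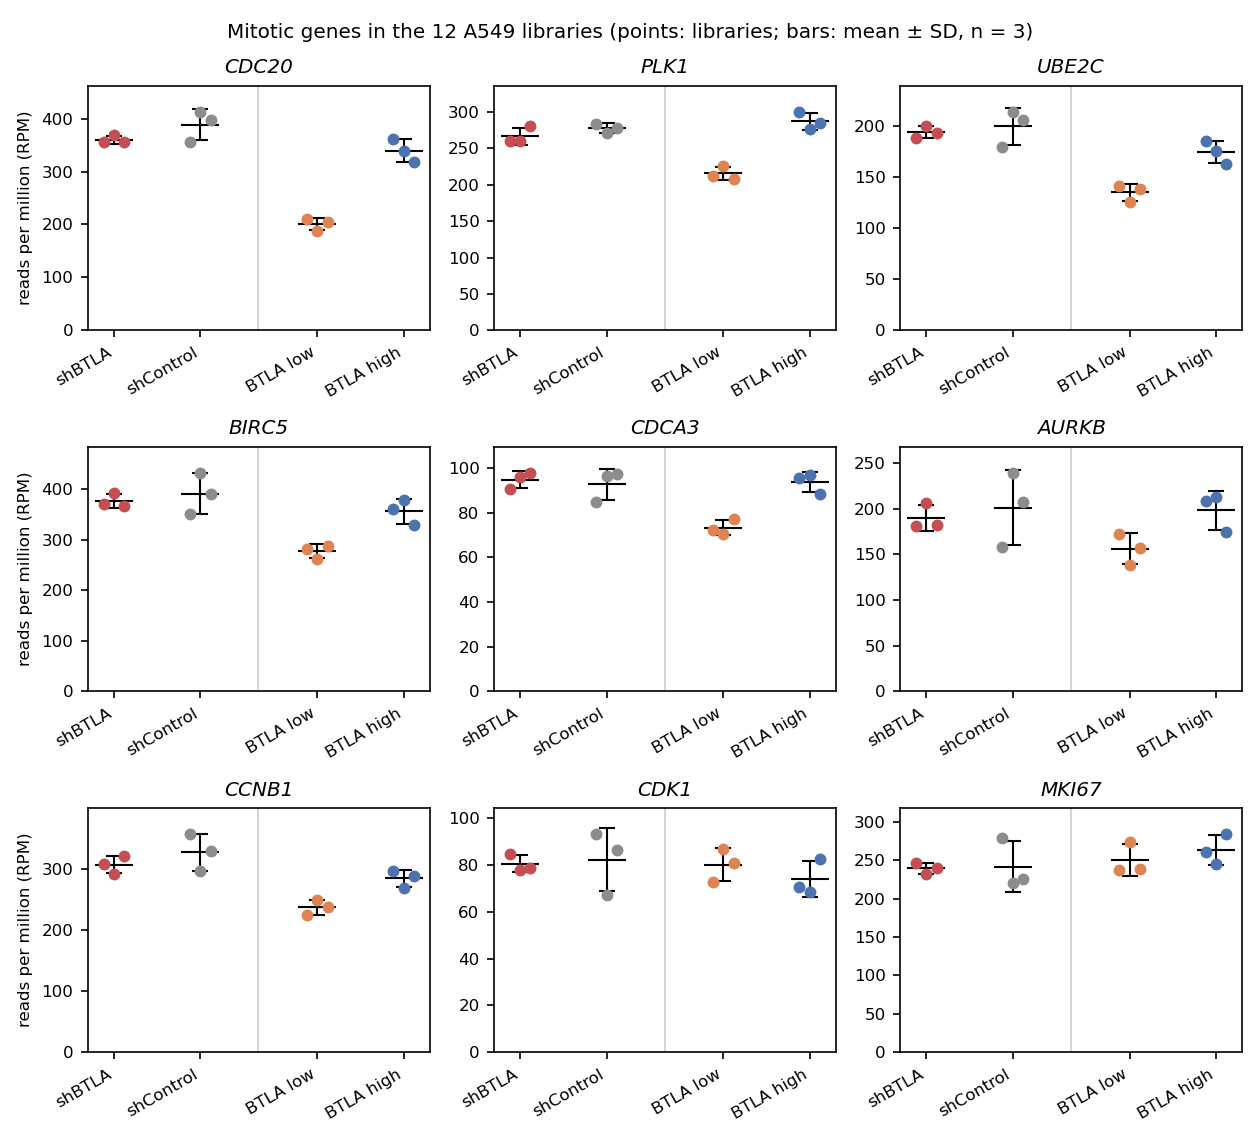
Levels in RPM of 9 mitotic genes, with points for the 3 libraries of each group and lines for mean ± SD, the KD groups left of the grey line and the sort groups right of it, each vertical axis starting at 0. For CDC20, PLK1, UBE2C, BIRC5, CDCA3, AURKB and CCNB1 all BTLA low libraries lie under all BTLA high libraries, while CDK1 and MKI67 overlap, and in the KD all 9 genes overlap between shBTLA and shControl.

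Of the 6 genes of the Aurora kinases and the chromosomal passenger complex, which corrects faulty spindle attachments and directs cytokinesis, 2 fell in BTLA low and all 6 had log2 fold changes below 0, with a median of -0.20. AURKB, the catalytic subunit of the complex (chromosome 17, 8204733 to 8210600), had 173, 139 and 157 RPM in BTLA low 1, 2 and 3, against 209, 213 and 174 RPM in BTLA high 1, 2 and 3. The highest BTLA low library and the lowest BTLA high library were close, without overlap (log2 fold change -0.35, SE 0.11, limma adjusted p = 0.0423). In the KD AURKB had 181, 206 and 182 RPM in the shBTLA libraries, against 158, 239 and 207 RPM in the shControl libraries, with the shBTLA libraries inside the shControl range. BIRC5 encodes survivin, a passenger subunit (chromosome 17, 78214186 to 78225636), and had 282, 262 and 288 RPM in BTLA low 1, 2 and 3, against 361, 378 and 330.1 RPM in BTLA high 1, 2 and 3, again without overlap (log2 fold change -0.36, SE 0.08, limma adjusted p = 0.0103). Its KD levels were 372, 393 and 366 RPM in the shBTLA libraries, against 351, 432 and 391 RPM in the shControl libraries (log2 fold change -0.05, 95% interval -0.29 to 0.20).

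AURKA, the Aurora kinase of centrosomes and spindle poles, had 109.6, 125 and 106 RPM in the BTLA low libraries, against 129, 114 and 143 RPM in the BTLA high libraries, which overlapped (log2 fold change -0.18, 95% interval -0.41 to 0.05, limma adjusted p = 0.228). In the KD it had 132, 112 and 129.7 RPM in the shBTLA libraries, against 163, 112 and 141 RPM in the shControl libraries, and shControl 1 was the highest. INCENP, the scaffold of the passenger complex, had 53.8, 47.8 and 54.1 RPM in the shBTLA libraries, against 86.5, 52.4 and 61.8 RPM in the shControl libraries, with shControl 2 below the highest shBTLA library (log2 fold change -0.34, 95% interval -0.75 to 0.08). CDCA8, which encodes the passenger subunit borealin, had 45.7, 35.7 and 46.8 RPM in the shBTLA libraries, against 71.8, 37.4 and 53.1 RPM in the shControl libraries and an interval of -0.83 to 0.23 around -0.30. Both were within overlapping ranges in the sort too, where INCENP had 51.9, 66.4 and 54.5 RPM in the BTLA low libraries, against 55.9, 53.3 and 70.6 RPM in the BTLA high libraries and CDCA8 had 40.8, 47.9 and 35.2 RPM in the BTLA low libraries, against 47.9, 38.6 and 54.2 RPM in the BTLA high libraries. The remaining gene of the group, TPX2, which activates AURKA on the spindle, had log2 fold changes of -0.22 in the sort (limma adjusted p = 0.134) and -0.11 in the KD.

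Of the 5 genes of anaphase onset and protein turnover, 3 fell in BTLA low, and the median log2 fold change was -0.35. CDC20, which activates the APC/C once the checkpoint is satisfied (chromosome 1, 43358981 to 43363203), had 211, 188 and 204 RPM in BTLA low 1, 2 and 3, against 361, 339 and 317 RPM in BTLA high 1, 2 and 3. Each BTLA low library was more than 100 RPM under each BTLA high library, and CDC20 averaged 201 ± 12.01 RPM in BTLA low and 339 ± 21.8 RPM in BTLA high (SD, n = 3 each), the largest change of the 49 in the sort (log2 fold change -0.75, SE 0.08, limma adjusted p = 0.000311). In the KD CDC20 had 355, 369 and 357 RPM in the shBTLA libraries, against 357, 412 and 398 RPM in the shControl libraries, with shBTLA and shControl overlapping (log2 fold change -0.11, 95% interval -0.33 to 0.11).

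UBE2C, the E2 enzyme that hands ubiquitin to APC/C substrates (chromosome 20, 45812576 to 45816957), had 141, 125 and 138 RPM in BTLA low 1, 2 and 3, against 185, 176 and 163 RPM in BTLA high 1, 2 and 3, without overlap (log2 fold change -0.37, SE 0.08, limma adjusted p = 0.0116). In the KD UBE2C had 189, 200.1 and 193 RPM in the shBTLA libraries, against 179, 213 and 206 RPM in the shControl libraries, and the shBTLA libraries lay inside the shControl range. CDCA3, a cell cycle gene whose protein promotes WEE1 turnover at mitotic entry (chromosome 12, 6844793 to 6852066), had 72.2, 70.7 and 77.03 RPM in BTLA low 1, 2 and 3, against 95.8, 96.7 and 88.6 RPM in BTLA high 1, 2 and 3, without overlap (log2 fold change -0.35, SE 0.08, limma adjusted p = 0.0127). Its KD levels, 90.6, 96.1 and 97.8 RPM in the shBTLA libraries, against 84.8, 96.5 and 97.2 RPM in the shControl libraries, differed by a log2 fold change of 0.03 (95% interval -0.21 to 0.27). PTTG1 encodes securin, the inhibitor of separase that the APC/C removes, and had 206, 162 and 195 RPM in the BTLA low libraries, against 237, 256 and 191 RPM in the BTLA high libraries. BTLA high 3 lay below BTLA low 1 and 3, and PTTG1 did not pass the test (log2 fold change -0.28, 95% interval -0.56 to 0.00). In the KD PTTG1 had 249, 317 and 254 RPM in the shBTLA libraries, against 157, 308 and 227 RPM in the shControl libraries, and shControl 1 and 2 were farthest apart (log2 fold change 0.29). ESPL1, which encodes separase, had 0.13 in the sort and -0.25 in the KD on the log2 scale.

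In the other 4 role groups 0 genes passed the test in either experiment. The 5 checkpoint genes had a median log2 fold change of -0.10 in the sort and -0.02 in the KD. MAD2L1, which encodes the MAD2 protein that holds CDC20 inactive, had 65.8, 74.05 and 65.5 RPM in the BTLA low libraries, against 73.4, 66.6 and 85.4 RPM in the BTLA high libraries (log2 fold change -0.13, 95% interval -0.37 to 0.11). In the KD it had 85.6, 78.4 and 86.6 RPM in the shBTLA libraries, against 93.99, 74.1 and 85.2 RPM in the shControl libraries. The MAD2L1 groups overlapped both times. BUB1B encodes the checkpoint kinase-like protein BUBR1 and had the widest spread within groups of the 49 in the KD, an SD of 0.54 on the log2 scale, with shControl 1 far above the other libraries. It had 24.7, 18.3 and 25.6 RPM in the shBTLA libraries, against 48.4, 17.9 and 25.8 RPM in the shControl libraries there, and 22.9, 37.2 and 26.1 RPM in the BTLA low libraries, against 24.6, 21.2 and 30.9 RPM in the BTLA high libraries in the sort, overlapping each time. The other checkpoint genes were BUB1 (-0.18 in the sort and -0.02 in the KD on the log2 scale), BUB3 (-0.10 and -0.004) and TTK (0.04 and -0.07).

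The 7 genes of the centromere and kinetochore had medians of 0.11 in the sort and 0.07 in the KD, the highest of the role groups in both, with a sort range of -0.11 (CENPA, the centromeric histone variant) to 0.17 (CENPE, a kinetochore motor). CENPF, a large kinetochore protein made in G2, had 127, 170.1 and 140.0 RPM in the BTLA low libraries, against 132, 111 and 164 RPM in the BTLA high libraries, which overlapped (log2 fold change 0.11). In the KD CENPF had 133, 107 and 126 RPM in the shBTLA libraries, against 180.2, 105 and 129 RPM in the shControl libraries, and shControl 1 was the highest library. SPC24, a subunit of the NDC80 complex that binds microtubules, was among the 4 smallest p of the 49 in the KD. It had 43.97, 51.2 and 43.9 RPM in the shBTLA libraries, against 34.4, 45.01 and 38.5 RPM in the shControl libraries (log2 fold change 0.24, 95% interval -0.07 to 0.56), with shControl 2 above shBTLA 1 and 3. In the sort SPC24 had 49.3, 42.4 and 47.9 RPM in the BTLA low libraries, against 46.2, 52.98 and 42.3 RPM in the BTLA high libraries. Of its partners, NUF2 and NDC80 were above the shControl range in all shBTLA libraries without passing the test, with log2 fold changes of 0.13 (95% interval -0.12 to 0.37) and 0.13 (95% interval -0.13 to 0.40).

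The 7 mitotic kinesins, motors that build the spindle and move chromosomes, had medians of -0.06 in the sort and -0.12 in the KD. KIF11, the motor that pushes the spindle poles apart, had 60.8, 78.5 and 64.4 RPM in the BTLA low libraries, against 67.5, 61.4 and 74.8 RPM in the BTLA high libraries (log2 fold change -0.004, 95% interval -0.27 to 0.26). In the KD KIF11 had 65.5, 59.04 and 63.7 RPM in the shBTLA libraries, against 88.8, 56.7 and 62.9 RPM in the shControl libraries. Its groups overlapped both times, and the sort value was the closest to 0 of the 49. The lowest and highest kinesins in the sort were KIF2C (-0.09) and KIF18A (0.32), and in the KD KIF14 (-0.30) and KIF18A (0.10). KIF23, read by its Ensembl ID, would have joined them with log2 fold changes of 0.01 in the sort and -0.04 in the KD (limma adjusted p = 0.972 and 0.955).

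The 8 genes of spindle-associated proteins and cytokinesis held the extremes of low depth. NUSAP1 and PRC1, which bundle spindle microtubules, had 13 to 45 reads in any library and overlap other genes on the same stretch, so their values are uncertain. NUSAP1 had 0.919, 1.08 and 0.8005 RPM in the BTLA low libraries, against 0.794, 0.635 and 0.411 RPM in the BTLA high libraries, the highest log2 fold change of the 49 in the sort (0.57, 95% interval -0.11 to 1.24). PRC1 had 0.526, 0.869 and 0.671 RPM in the shBTLA libraries, against 1.304, 0.6804 and 0.825 RPM in the shControl libraries, the lowest in the KD (-0.37, 95% interval -1.13 to 0.39). Among the other 6, the sort log2 fold changes ran from -0.14 (ANLN, which encodes the contractile ring protein anillin) to 0.42 (ECT2, which activates RhoA at the division site, limma adjusted p = 0.142). Of the 2 genes of the mitotic chromosome, TOP2A, the topoisomerase that untangles sister chromatids, had 298, 409.8 and 323 RPM in the BTLA low libraries, against 325, 307 and 418 RPM in the BTLA high libraries. In the KD TOP2A had 339, 296 and 354 RPM in the shBTLA libraries, against 498, 274 and 339.8 RPM in the shControl libraries, and shControl 1 was the highest. MKI67, which encodes the proliferation antigen Ki-67, had 238, 274 and 239 RPM in the BTLA low libraries, against 261, 246 and 284 RPM in the BTLA high libraries (log2 fold change -0.08, 95% interval -0.27 to 0.12). In the KD MKI67 had 246, 232 and 241 RPM in the shBTLA libraries, against 279.5, 221 and 225 RPM in the shControl libraries (log2 fold change -0.01, 95% interval -0.27 to 0.26). Neither gene passed the test in either experiment.

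Of the 7 genes, PLK1 and CDCA3 overlap other genes, whose levels averaged at most 0.0489 and 2.30 RPM, and the other 5 overlap none. Leaving out single libraries left CDC20 and PLK1 called in every case. Without BTLA high 1 these were the only 2 of the 49 called, beside 2.51% lower and 9.48% higher of all genes in that fit. CCNB1 also lost its call without BTLA low 1 or BTLA low 3, and AURKB without BTLA high 2, BTLA low 2 or BTLA low 3. Without BTLA high 3 the count was 8 lower, the 7 and PTTG1, and 2 higher, KIF18A and ECT2, beside 8.28% lower and 27.6% higher of all genes, and the median of the 49 was 0.05 in place of -0.06. Without BTLA low 1 the median was 0.01.

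The summed RPM of the 49 genes was 4805 ± 302 in BTLA low and 5334 ± 311 in BTLA high (SD, n = 3 each), and 5330 ± 146 in shBTLA and 5564 ± 526 in shControl. The ranges overlapped in both experiments, being 4593 to 5151 RPM in BTLA low and 5012 to 5633 RPM in BTLA high. Libraries of 1 group differed in the level of the set as a whole. Around the mean of the 6 libraries of an experiment, the median deviation of the 49 on the log2 scale was -0.12, 0.18 and -0.10 in BTLA low 1, 2 and 3, against 0.00, -0.13 and 0.19 in BTLA high 1, 2 and 3. It was 0.01, -0.12 and 0.01 in shBTLA 1, 2 and 3, against 0.32, -0.21 and 0.03 in shControl 1, 2 and 3. The library with the lowest ribosomal protein share was the highest for the mitotic genes in the KD (shControl 1, 6.92% of reads) and second highest in the sort (BTLA low 2, 6.43%), and the library with the highest share was the lowest in both (shControl 2, 11.7%, and BTLA high 2, 10.5%). The mitochondrial share of reads was 6.92% ± 0.27 in BTLA low and 5.44% ± 0.30 in BTLA high, and its part in the fold changes was not tested.

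**Figure D3:**
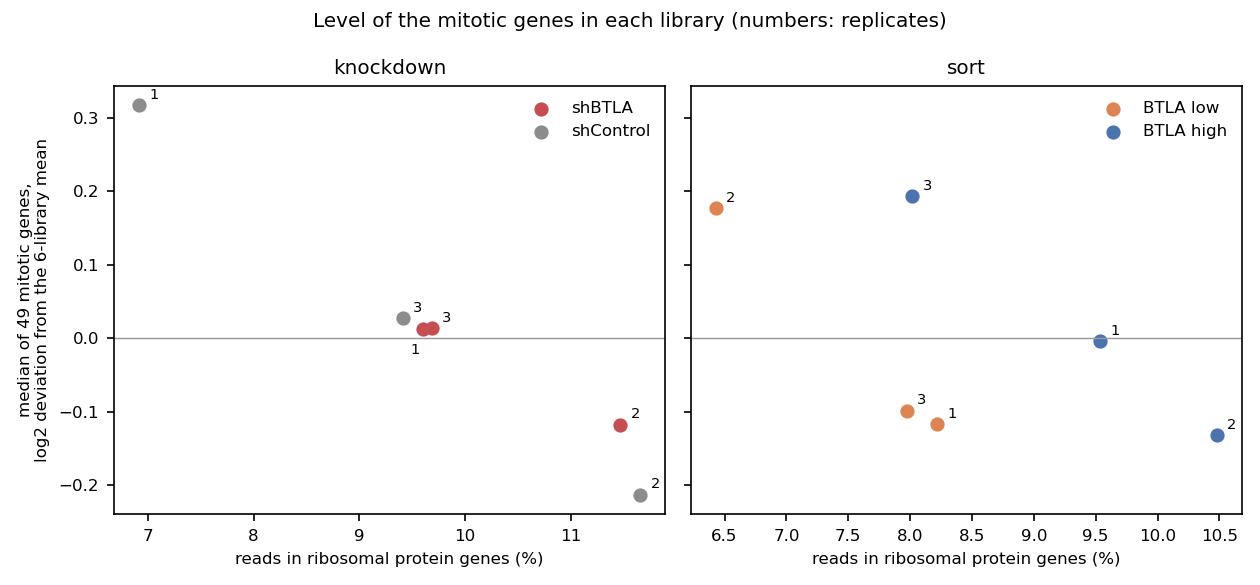
The median log2 deviation of the 49 mitotic genes from the mean of the 6 libraries of their experiment (vertical) against the percent of reads in ribosomal protein genes (horizontal), one point per library with its replicate number, KD left and sort right. In the KD shControl 1 (6.92%, 0.32) and shControl 2 (11.7%, -0.21) lie at opposite ends and the 3 shBTLA libraries between them, and in the sort 2 of the 3 BTLA low libraries and 2 of the 3 BTLA high libraries lie below the zero line, so the groups overlap.

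The comparisons share no library, so the KD fold change minus the sort fold change was tested in 1 fit over the 12 libraries. Of the 49 genes, 1 differed between the experiments at an adjusted p under 0.05, against 4.83% of the 16160 genes tested. This was CDC20, with -0.11 in the KD and -0.75 in the sort and a difference of 0.65 (SE 0.11, limma adjusted p = 0.0107). PLK1 (0.35, limma adjusted p = 0.058), CDCA3 (0.39, limma adjusted p = 0.0749), UBE2C (0.33, limma adjusted p = 0.129) and BIRC5 (0.31, limma adjusted p = 0.161) differed at an unadjusted p under 0.05 only, as did 23.3% of all genes. CCNB1 and AURKB did not reach that level, with differences of 0.17 (95% interval -0.08 to 0.43) and 0.28 (95% interval -0.16 to 0.72). The median difference was -0.06 for the 49 genes, against -0.20 for all genes tested, and 26 of the 49 were below 0 in both experiments. RPM were scaled to the total of each library, and each difference was taken within its experiment.

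**Figure D4:**
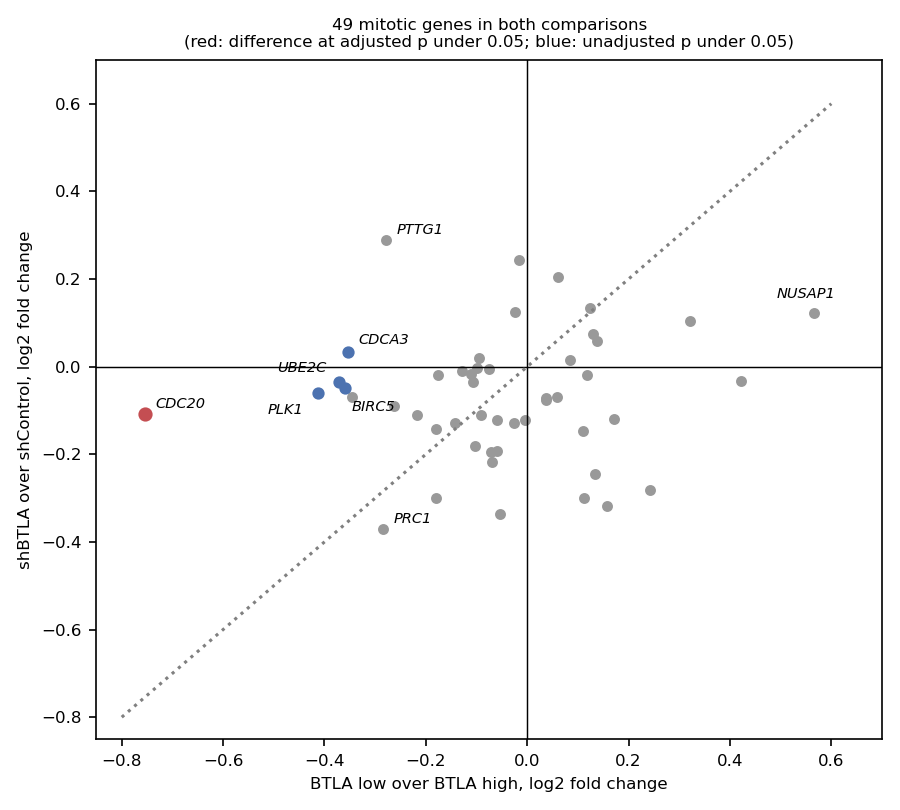
Log2 fold changes of the 49 mitotic genes, BTLA low over BTLA high (horizontal) against shBTLA over shControl (vertical), one point per gene, with a dotted line where both are equal. CDC20 (red) lies at -0.11 on the vertical and -0.75 on the horizontal axis and is the 1 gene whose fold changes differed at an adjusted p under 0.05, and the 4 blue genes differed at an unadjusted p under 0.05 only.

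The 7 genes that fell in BTLA low were short. Their genomic spans in the files were 4223 to 12712 bases, with a median of 7274, and those of the other 42 were 6885 to 130783 bases, with a median of 30752. Of the 49 genes, 11 spanned 12712 bases or less, and these held all 7 calls and a median log2 fold change of -0.35. The 38 longer genes held 0 lower calls and a median of -0.01. The limit was set by the longest of the 7 after the values were seen and carries no test. Over all genes tested, 7.62% of the 5604 genes up to that span were lower and 5.58% of the 11299 longer genes, with medians of 0.13 and 0.19. Across the 49 genes Spearman's rho of span with the sort fold change was 0.58, against 0.10 across all genes tested, and that of transcript GC content was -0.51, against -0.09. In the KD rho with span was -0.08 for the 49 genes and -0.17 for all genes tested. The canonical transcripts of the 7 had a median GC content of 53.8%, against 41.8% for the other 42. These describe genes of the same 6 libraries, which are not independent points.

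**Figure D5:**
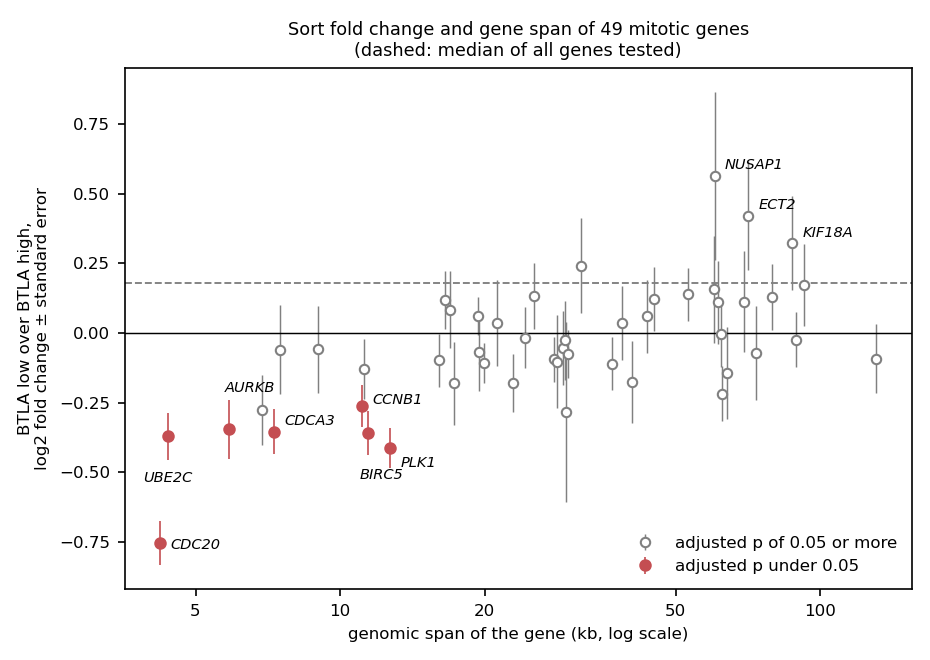
Log2 fold change of BTLA low over BTLA high ± SE (vertical) against genomic span in kb on a log scale (horizontal) for the 49 mitotic genes, 3 libraries a group. The 7 filled genes passed the test and all lie at spans of 12712 bases or less, and the dashed line marks the median of all genes tested, 0.18.

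Other lists of the same pathway were counted in the same fits, to be read beside 19.1% higher and 6.25% lower of all genes in the sort. Of 35 other genes expressed in G2/M, 1 was higher and 5 lower in BTLA low, with a median log2 fold change of 0.00. TUBB4B, a beta-tubulin of the spindle, had 1024, 951 and 978 RPM in the BTLA low libraries, against 1424, 1383 and 1297 RPM in the BTLA high libraries (log2 fold change -0.47, SE 0.07, limma adjusted p = 0.00138). RANGAP1, which activates the Ran GTPase and sits at kinetochores in mitosis, had 209.5, 193 and 203 RPM in the BTLA low libraries, against 313, 284 and 270.4 RPM in the BTLA high libraries (log2 fold change -0.52, SE 0.08, limma adjusted p = 0.00189). Neither gene's groups overlapped. Of 16 genes that control G2/M entry, 1 was higher and 3 lower, with a median of -0.03. Among the 3, GADD45A, a stress-induced inhibitor of CDK1 and cyclin B1, had 18.6, 18.3 and 18.04 RPM in the BTLA low libraries, against 31.98, 27.6 and 28.6 RPM in the BTLA high libraries (log2 fold change -0.68, SE 0.10, limma adjusted p = 0.00159). Of 19 APC/C subunits and regulators 0 were higher and 2 lower, of 19 condensin and cohesin genes 0 and 1, of 29 other kinetochore subunits 2 and 0, and of 11 DREAM and MuvB genes 0 and 1. The last was MYBL2, which encodes B-MYB, lower without overlap (log2 fold change -0.41, SE 0.07, limma adjusted p = 0.00248). Of 40 S phase genes, 0 were higher and 7 lower, with a median of -0.12 and 29 genes below 0. In the KD 0.782% of all genes tested were higher and 0.686% lower. Of these lists 0 genes passed the test there in either direction, except CENPW, which encodes an inner kinetochore protein. It had 44.1, 50.5 and 41.7 RPM in the shBTLA libraries, against 18.5, 29.1 and 24.4 RPM in the shControl libraries, without overlap (log2 fold change 0.94, SE 0.18, limma adjusted p = 0.046). At an unadjusted p under 0.05 the KD counts were 1 higher of the other G2/M genes, 2 higher of the other kinetochore subunits, 1 lower each of the G2/M entry control and S phase genes, and 0 in the remaining lists, beside 5.4% higher and 5.36% lower of all genes.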

How the data were processed

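The 12 libraries of A549 RNA fall into 4 labelled groups of 3. The authors used Trim Galore 0.6.6, STAR on GRCh38 and featureCounts, and deposited RPKM per gene and library. The deposited RPKM had been divided by the span of another gene, the one in the same position of the sorted list of gene IDs, so they do not compare genes. Multiplying by that span gave back whole reads for the 58797 genes where it was known (100% of values above 0 within 0.02 of a read). Another 1056 genes with reads had no such span. For them the smallest length that gave whole reads was used, a search that was right for 193 of 200 genes of known span. The authors' edgeR tables hold a log2 fold change, mean log2 CPM, likelihood ratio, p-value and FDR per gene, and only gene names and positions were taken from them. No source used here states the strand or multi-mapping settings.

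RPM were fitted within each experiment by limma 3.58.1 (R 4.3.3, eBayes with trend) as log2(RPM + 0.1), with genes kept at 10 reads or more in 3 or more of the 6 libraries. Adjusted p-values are Benjamini-Hochberg over these genes. All 49 genes passed this filter in both experiments. Fits were tested on simulated data, where the changes put in were larger than that of any of the 49 genes on RPM. That test does not cover changes of the size reported here. Alternatives were TMM and median scaling, voom, a pseudocount of 1, no filter or 30 reads, the deposited RPKM, the ribosomal protein share as a covariate, a replicate block and leaving out each library. Promoters came from RefSeq, transcript GC content from GENCODE on GRCh37, and figures from matplotlib 3.10.9.

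The genes and lists were chosen with earlier results of these data known. Values in every library are given for 14 genes set by name, for genes past the adjusted threshold and for the 4 smallest p in each comparison, with the extremes of each role group, and of the other lists for at most 3 genes a comparison. NUF2, NDC80, CCNB2 and MYBL2 were named after their values were seen.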

Additional observations from a re-analysis of the deposited data

Results flagged for a closer look

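CDC20 was the 1 mitotic gene of 49 whose fold change differed between the experiments by a test of the difference itself. Of all genes tested, 4.83% differed at an adjusted p under 0.05. The KD log2 fold change minus the sort log2 fold change was 0.65 (SE 0.11, 95% interval 0.40 to 0.89, limma adjusted p = 0.0107 over 16160 genes), with -0.11 in the KD and -0.75 in the sort. In the sort 3 of 3 BTLA low libraries were below all BTLA high libraries, and in the KD shBTLA and shControl overlapped. Under the 6 alternatives tried the difference was 0.64 to 0.93.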

How the results depend on the processing

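In the sort, 7 mitotic genes were lower on RPM, 15 with TMM scaling, 23 with median scaling and 30 with the ribosomal protein share as a covariate, which also called 1 higher. Of all genes, 6.25%, 12.5%, 18.3% and 14.9% were lower in these fits, and 20.9% were higher with the covariate. Median scaling and this covariate gave medians of -0.32 and -0.27, and median scaling put 1 gene, CDC20, past a log2 fold change of -1 on the lower side. The covariate turned the sign of BUB1B to -0.34, of CENPF to -0.29, of NEK2 to -0.25, of KIF14 to -0.33, of DLGAP5 to -0.26, of CKAP2 to -0.35 and of SPC24 to 0.21, each of them called only there. In the KD the covariate called 1 higher (CDC25B) and 3 lower (AURKB, INCENP and CDC20) of the 49, beside 8.19% higher and 7.69% lower of all genes, and the other alternatives called 0. The cause was not tested. Leaving out 1 library gave 2 to 8 lower and 0 to 2 higher in the sort, and 0 of either in the KD. TMM, median scaling and a minimum of 30 reads gave 2, 4 and 2 genes that differed between the experiments, CDC20 among them each time. The shares of all genes that differed in these fits are not given here. Deviations of same-numbered libraries from their group means had correlations of 0.22, 0.41 and -0.04 in the KD and 0.07, -0.37 and -0.16 in the sort. With 3 libraries a group these values cannot decide whether the numbers pair libraries. With replicate numbers as a block 2 genes were lower in the sort, CDC20 and PLK1, beside 2.73% of all genes, and 0 were called in the KD. Of all genes in the KD, the block called 260 higher and 285 lower, against 130 and 114 without it. CCNB1 and AURKB missed the threshold with no filter and on the deposited RPKM. Of 636 values of the 21 genes given by library, 590 kept their side of the threshold and, where called, their direction, 20 lost a call, 23 gained one and 3 reversed. With 3 libraries a group, and 13 to 45 reads for NUSAP1 and PRC1, small differences of that pair could not be detected. Some genes with more reads also had wide limma intervals in the KD. On the log2 scale these were -1.07 to 0.43 for BUB1B and -0.59 to 0.34 for TOP2A. That of PLK1 was narrower, -0.27 to 0.15. The 0 calls in the KD thus do not show that small changes of the 49 genes were absent.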
